A study of Mus musculus with 6 samples.

Results

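The 36 genes described here are a set of cell cycle genes, taken by their symbols from a table of 45777 genes of mouse small intestine. All 36 were in the table, and all 36 were among the 18456 genes with enough reads to be tested. By role, 12 are genes of replication licensing, DNA synthesis and nucleotide supply, 6 are regulators of the passage from G1 to S phase (G1/S), 15 are genes of mitosis, and Mki67, Top2a and Ccna2, which are used from S phase through mitosis, were kept apart. They were chosen by symbol, with earlier results of these data known.

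The study sequenced total RNA of mouse small intestine in 6 libraries. GFP (green fluorescent protein) stands in the names of the 3 controls, with the numbers 1-1, 1-4 and 3-1. The other 3 are labelled for overexpression of PKCzeta, the atypical protein kinase C encoded by Prkcz, with the numbers 2-1, 4-1 and 4-2, and the design text states that the comparison was made to find genes that differ after this overexpression. All 6 names begin with DIO, which the labels do not spell out. Strain, age, sex, diet, the vector, its promoter and its route, and the stretch of intestine taken are not given in the sources used here. No label says that each library is a separate animal, so p-values measure only the spread between these samples.

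Total read counts ran from 77573133 to 93742978 per library. Levels are given as CPM, the usual unit of counts relative to library size, with library sizes corrected by TMM. Prkcz, the gene named by the label, stood at 70.5, 98.6 and 96.9 CPM in GFP 1-1, 1-4 and 3-1 and at 82.5, 100.07 and 57.0 CPM in PKCzeta 2-1, 4-1 and 4-2. Its log2 fold change, PKCzeta minus GFP, was -0.15 (SE 0.24, edgeR adjusted p = 0.950), so the counts of this gene did not separate the labels, and every direction below is one between labels. All 8 listed markers of intestinal epithelium (Vil1, Cdh17, Epcam, Krt8, Krt18, Krt19, Cdx1 and Cdx2) were tested, with a summed level of 12350 to 16473 CPM under the GFP label and of 11824 to 13162 CPM under the PKCzeta label.

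A dividing cell licenses its replication origins in G1 by loading the MCM helicase, commits to S phase when cyclin D and cyclin E kinases release E2F factors from the retinoblastoma proteins, copies its DNA, and then builds a spindle under cyclin B and CDK1. Genes of the replication wave are classical E2F targets, while genes of the mitotic wave are held down by the DREAM complex and turned on by B-MYB and FOXM1 through the CHR element, often next to CCAAT boxes bound by NF-Y. In the small intestine, division takes place in the crypts, among stem cells and transit-amplifying progenitors, and cells that move onto the villi stop dividing and differentiate.

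Promoters of members from the 2 waves are shown first, since the waves differ in these letters and are compared below in their expression. The window of the RefSeq table (GRCm38.p6) spans 250 bases before to 50 bases after a gene's start. The windows are those of the 2 most highly counted replication members and the 2 most highly counted mitosis members with an entry in that table. Capitals mark every match, on either strand, to an E2F-type site, a CHR element or CCAAT. The E2F-type letters searched were TTCCCGC, besides that TTCGCGC, further TTGGCGC and finally TTGCCGC. The CHR letters were TTTGAA and in addition TTCGAA. Matches can overlap, as where E2F-type sites on opposite strands share bases or where an E2F-type site runs into CCAAT.
Pcna, the sliding clamp of DNA polymerase (chr2:132253131-132253430, minus strand): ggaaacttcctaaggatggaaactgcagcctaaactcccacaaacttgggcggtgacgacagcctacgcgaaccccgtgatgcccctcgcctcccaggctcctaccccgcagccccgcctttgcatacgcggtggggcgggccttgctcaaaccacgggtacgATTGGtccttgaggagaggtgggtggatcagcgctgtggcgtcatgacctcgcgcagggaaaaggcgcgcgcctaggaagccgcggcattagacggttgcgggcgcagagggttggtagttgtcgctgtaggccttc
Mcm6, a subunit of the MCM helicase (chr1:128359656-128359955, minus strand): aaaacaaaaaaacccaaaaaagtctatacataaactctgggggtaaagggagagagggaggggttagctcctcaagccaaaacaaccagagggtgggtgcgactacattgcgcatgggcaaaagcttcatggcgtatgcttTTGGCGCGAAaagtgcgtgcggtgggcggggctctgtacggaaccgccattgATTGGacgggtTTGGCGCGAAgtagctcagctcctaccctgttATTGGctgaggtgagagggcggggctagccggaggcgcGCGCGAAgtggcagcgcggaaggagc
Kif11, the kinesin that pushes spindle poles apart (chr19:37376132-37376431, plus strand): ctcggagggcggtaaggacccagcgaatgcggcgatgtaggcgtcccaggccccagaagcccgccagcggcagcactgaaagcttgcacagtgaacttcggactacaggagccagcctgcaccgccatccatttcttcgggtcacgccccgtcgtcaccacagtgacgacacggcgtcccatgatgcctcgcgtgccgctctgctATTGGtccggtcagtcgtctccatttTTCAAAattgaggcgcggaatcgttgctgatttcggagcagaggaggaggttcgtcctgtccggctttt
Ccnb1, cyclin B1, the partner of CDK1 (chr13:100786437-100786736, minus strand): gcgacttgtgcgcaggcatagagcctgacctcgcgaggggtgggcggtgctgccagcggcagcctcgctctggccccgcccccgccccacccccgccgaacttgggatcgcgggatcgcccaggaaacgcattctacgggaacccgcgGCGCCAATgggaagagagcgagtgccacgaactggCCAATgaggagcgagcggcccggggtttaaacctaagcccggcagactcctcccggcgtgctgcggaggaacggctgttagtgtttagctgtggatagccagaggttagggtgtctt

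The Mcm6 window held 5 E2F-type matches, which began at -109, -106, -46, -43 and 25 from the start, and 2 CCAAT matches at -57 and -14. The Kif11 window held a CHR match at -19 and a CCAAT match at -45. Ccnb1 had CCAAT matches at -99 and -67, the first of them overlapping an E2F-type match at -102, and no CHR letters in this window. Pcna had a single match, CCAAT at -87.

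A window was found for 29 of the 36 members. E2F-type letters were in 7 of 11 replication windows (63.6%) and in 2 of 13 mitosis windows (15.4%), against 9.69% of all 26997 windows. All 36 members are protein-coding, and all windows include those of other genes. Over the 17519 windows of protein-coding genes the shares were 12.2% for E2F-type letters, 18.1% for CHR and 39.0% for CCAAT. CHR letters were in 3 of 11 replication windows (27.3%) and 10 of 13 mitosis windows (76.9%), against 19.4% of all windows. CCAAT was common to both waves, with 9 of 11 replication windows (81.8%) and 12 of 13 mitosis windows (92.3%), against 37.9% of all windows. Every window with a CHR match also held CCAAT in both waves, which made 3 replication windows (27.3%) and 10 mitosis windows (76.9%). That pairing was found in 7.70% of all windows. These are letter matches in 1 window a gene, and binding was not measured. No window was found for Mcm4, Ccnd1, Ccnd2, Ccne2, Aurkb, Kif20a and Ccna2.

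In expression, replication and mitosis members lay close together in every library. Each member's log2 CPM was set against its own mean over the 6 libraries, and these deviations were averaged over a group of genes to give a score per library. In GFP 1-1, 1-4 and 3-1 the replication score was -0.33, 0.43 and -0.51, and in PKCzeta 2-1, 4-1 and 4-2 it was -0.48, 0.062 and 0.83. The mitosis score in the same order was -0.24, 0.37 and -0.54 under GFP and -0.52, 0.19 and 0.74 under PKCzeta. Both waves were highest in PKCzeta 4-2, next highest in GFP 1-4, and lowest in GFP 3-1 and PKCzeta 2-1, so each label held libraries from both ends.

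**Figure D1:**
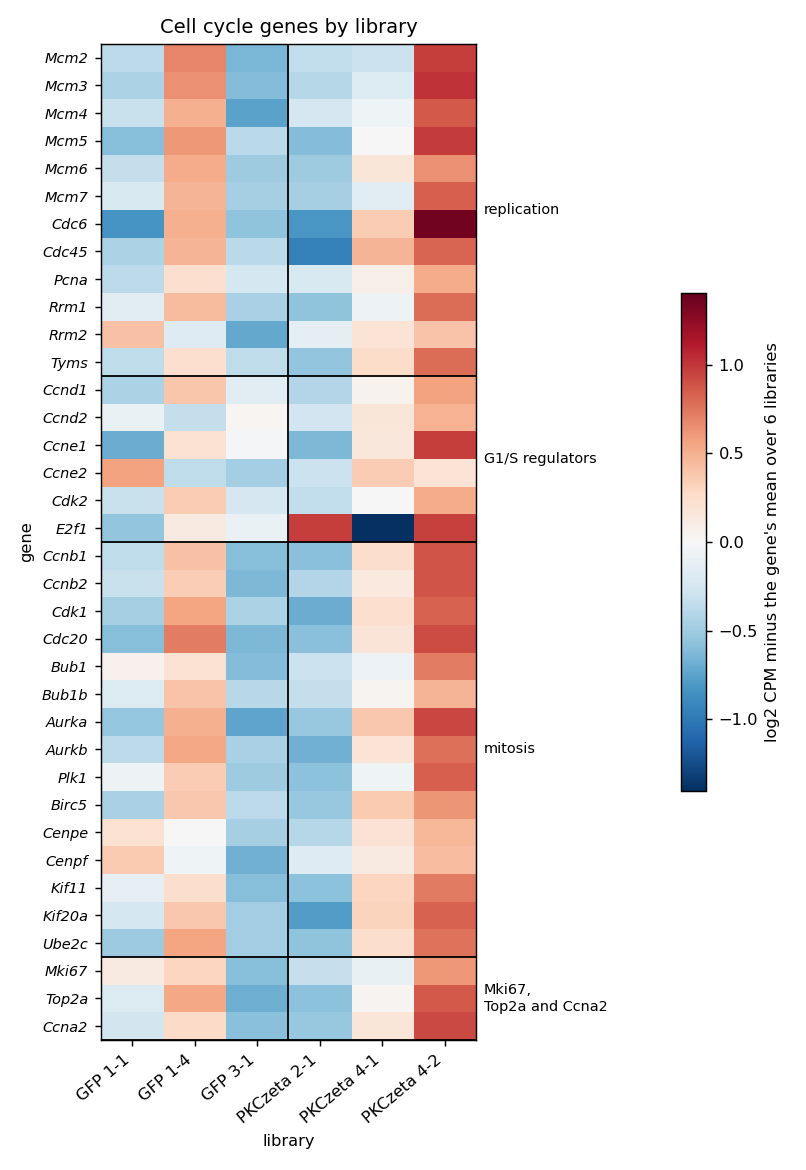
Deviation of log2 CPM from the gene's own mean over 6 libraries, for the 36 members (rows, by role) in each library (columns, GFP left of the line and PKCzeta right of it). All 36 members are above their own mean in PKCzeta 4-2, and 31 of 36 are above it in GFP 1-4, while 1 of 36 is above it in GFP 3-1 and in PKCzeta 2-1.

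Counted gene by gene, 6, 31 and 1 of the 36 members were above their own mean in GFP 1-1, 1-4 and 3-1, and 1, 26 and 36 were above it in PKCzeta 2-1, 4-1 and 4-2. Over all tested genes the same share stayed between 46.8% and 57.0% in every library. PKCzeta 4-2 was the highest library for 33 of 36 members (23.1% of all tested genes), and GFP 3-1 was the lowest for 18 (20.1% of all tested genes) and PKCzeta 2-1 for 12 (12.0%). Of the total reads, the members took 0.0771%, 0.116% and 0.0601% in GFP 1-1, 1-4 and 3-1 and 0.0700%, 0.104% and 0.184% in PKCzeta 2-1, 4-1 and 4-2. The median ratio of the highest to the lowest library was 2.61 for the members and 1.97 for all tested genes. In bulk tissue, fewer cells of a type and less RNA per cell cannot be told apart.

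The difference between the waves was small beside their common range. Mitosis minus replication was 0.092, -0.060 and -0.033 on the log2 scale in GFP 1-1, 1-4 and 3-1, and -0.035, 0.13 and -0.091 in PKCzeta 2-1, 4-1 and 4-2. It spanned 0.218 from the lowest to the highest library, while the replication score spanned 1.34 and the mitosis score 1.28. The sign was mixed within each label, with the mitosis wave ahead in GFP 1-1 and PKCzeta 4-1 and behind in the other 4 libraries. The group means were -0.00035 for GFP and 0.00035 for PKCzeta. They mirror each other because each gene was centred over groups of equal size, and so do the group scores below. Their difference was 0.00069, against an SD between libraries of 0.098 within labels.

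**Figure D2:**
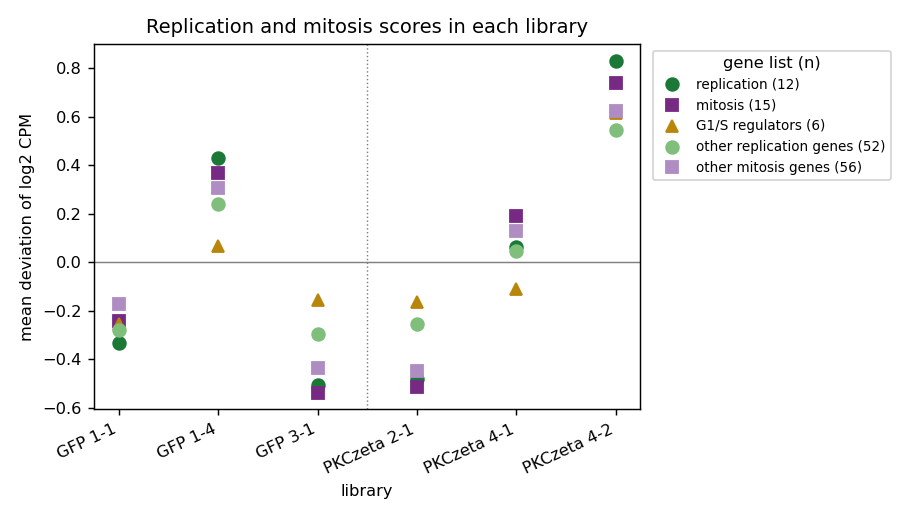
Mean deviation of log2 CPM (vertical axis) in each library for replication, mitosis and G1/S members and for the 52 other replication and 56 other mitosis genes, with 1 symbol per list and no error bars. The symbols of the replication and mitosis members lie within 0.13 of each other in every library, while the libraries span 1.34 and 1.28.

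The same contrast in genes that are not members, from lists of 52 further replication genes and 56 further mitosis genes, gave 0.11, 0.065 and -0.14 under GFP and -0.19, 0.085 and 0.080 under PKCzeta. The sign differed from that of the members in GFP 1-4 and PKCzeta 4-2. The group difference in these lists was -0.020. These lists were likewise highest in PKCzeta 4-2, with 41 of 52 replication genes and 47 of 56 mitosis genes highest in PKCzeta 4-2.

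Between labels, none of the 36 members passed the test. The edgeR quasi-likelihood test with Benjamini-Hochberg adjustment over all 18456 genes gave the members adjusted p-values from 0.917 to 0.971, and it called 0% of all tested genes. At an unadjusted p under 0.05, 0 members were higher (2.41% of all tested genes) and 0 were lower (3.07%). The group ranges did not overlap for 0 members, against 10.4% of all tested genes. All 36 fitted log2 fold changes lay above 0, from 0.12 to 0.74, where 54.3% of all tested genes lay above 0. Their median was 0.29, beside 0.035 for all tested genes. Members that vary together are not 36 separate measurements, and the common sign depended on which libraries were included. Without PKCzeta 4-2, 21 of 36 fold changes lay below 0 and the median was -0.048, beside 0.0020 for all tested genes. Without GFP 3-1, 6 members lay below 0 and the median was 0.10. Without GFP 1-1, 2 members lay below 0 and the median was 0.18. Without GFP 1-4, the median was 0.63 and 1 member lay below 0, and without PKCzeta 2-1 the median was 0.48 and 0 members did. Without PKCzeta 4-1 they were 0.32 and 1, and without both GFP 1-4 and PKCzeta 4-2, a choice made after seeing the data, 0.23 and 4.

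**Figure D3:**
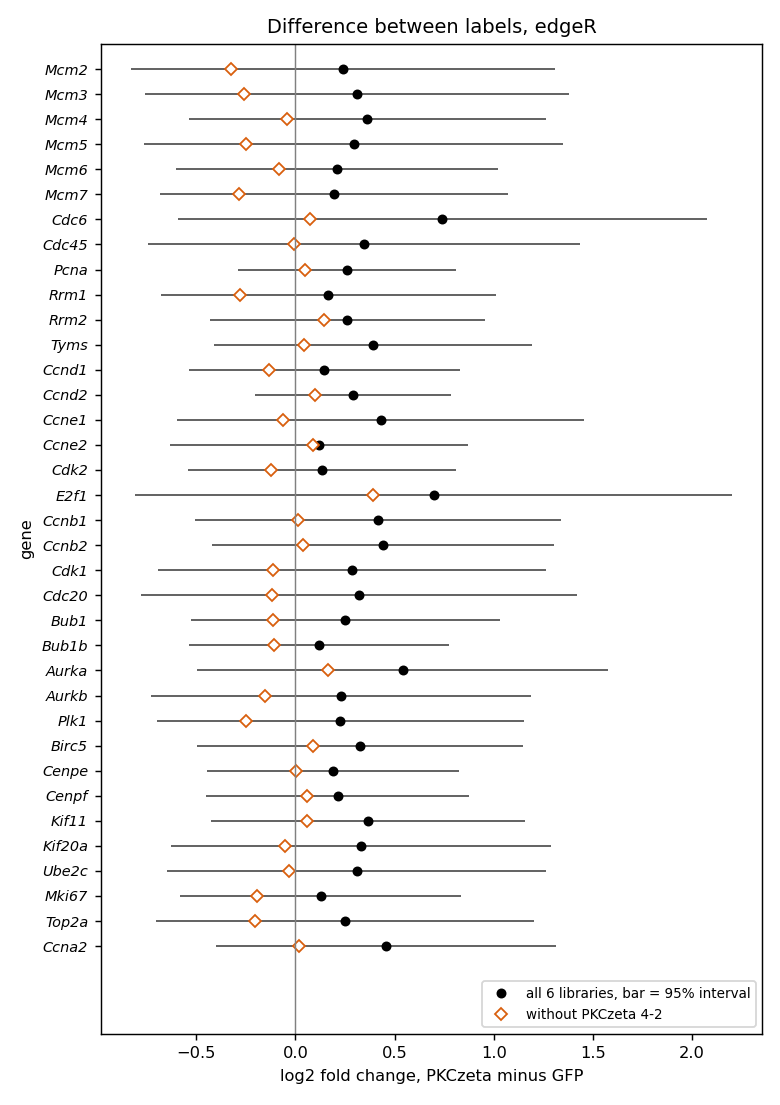
Log2 fold change between labels, PKCzeta minus GFP, for each member from edgeR (filled circles, bars are 95% intervals, n = 3 per label) and the same without PKCzeta 4-2 (open diamonds). Every interval includes 0, and leaving out PKCzeta 4-2 puts 21 of 36 values below 0.

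The replication members had a median log2 fold change of 0.28, from 0.17 to 0.74, and a score of -0.14 ± 0.50 in GFP and 0.14 ± 0.66 in PKCzeta (SD, n = 3 each). Cdc6 (chr11:98907709-98923942), the loader that brings the MCM helicase to origins, had the largest value. It was counted at 1.53, 3.86 and 1.84 CPM in GFP 1-1, 1-4 and 3-1 and at 1.54, 3.50 and 7.03 CPM in PKCzeta 2-1, 4-1 and 4-2. GFP 1-4 and PKCzeta 4-1 were close to each other, and only PKCzeta 4-2 lay above both labels' other libraries. Its log2 fold change was 0.74 (SE 0.58, adjusted p = 0.917), with a 95% interval from -0.59 to 2.07.

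Tyms (chr5:30038546-30073645), thymidylate synthase, which makes the thymidine nucleotide for DNA, had 10.6, 15.8 and 10.6 CPM in GFP and 9.16, 16.1 and 23.2 CPM in PKCzeta, in the same library order as above. Its lowest and its highest library both carried the PKCzeta label, and the log2 fold change was 0.39 (SE 0.35). Pcna (chr2:132249286-132253180) had 56.5, 85.7 and 61.4 CPM in GFP and 62.7, 76.9 and 104 CPM in PKCzeta, or 67.9 ± 15.7 and 81.4 ± 21.2 (SD, n = 3 each). GFP 1-4 lay above 2 of the 3 PKCzeta libraries, and the log2 fold change was 0.26 (SE 0.24). A processed copy, Pcna-ps2, held reads equal to 5.50% of those of Pcna, so a small part of the Pcna reads could be shared with it.

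Mcm4 (chr16:15623897-15637400), a helicase subunit, had 20.4, 35.9 and 15.0 CPM in GFP and 21.5, 24.3 and 45.9 CPM in PKCzeta. GFP 1-4 again lay between PKCzeta 4-1 and PKCzeta 4-2, and the log2 fold change was 0.36 (SE 0.39). The other MCM subunits gave 0.24 for Mcm2, 0.31 for Mcm3, 0.29 for Mcm5, 0.21 for Mcm6 and 0.20 for Mcm7. Cdc45, which joins MCM in the active helicase, gave 0.35, and Rrm1 and Rrm2, the subunits of ribonucleotide reductase, gave 0.17 and 0.26. Rrm2 was the exception to the common library order, with 21.9, 14.5 and 9.999 CPM in GFP and 15.1, 18.8 and 21.7 CPM in PKCzeta, so that GFP 1-1 was its highest library.

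On the TPM scale, which allows for gene length, Pcna was the most abundant member at 77.9 ± 30.5 TPM (SD over all 6 libraries). The 6 MCM subunits form a ring in equal parts, yet their RNA levels were not equal, at 22.3 ± 10.8 TPM for Mcm6, 13.9 ± 7.65 for Mcm7, 10.1 ± 5.74 for Mcm4, 9.72 ± 6.10 for Mcm5, 8.14 ± 5.33 for Mcm3 and 7.49 ± 4.80 for Mcm2. Neighbours in this order differed by less than the larger of their SDs between libraries. Those SDs include the rise and fall that the subunits share, so they do not measure differences between genes within a library. The lowest and highest library were at 12.4 and 39.7 TPM for Mcm6 and at 7.77 and 27.9 TPM for Mcm7. For Mcm4 and Mcm5 they were nearly alike, at 4.54 and 20.4 TPM and at 5.07 and 20.5 TPM. Cdc6, at 0.954 TPM, was far below the helicase it loads.

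The G1/S regulators had a median log2 fold change of 0.22, from 0.12 to 0.70. Their scores spread less than those of the waves they precede, at -0.26, 0.068 and -0.15 in GFP and -0.16, -0.11 and 0.62 in PKCzeta. These means of 6 genes depend on E2f1, which had few reads. In PKCzeta 2-1, 1 of 6 members stood above its own mean, and in PKCzeta 4-1, 5 of 6 did. E2f1 was the exception in both, with 64 and 10 reads. Ccnd2 (chr6:127125162-127152188), cyclin D2, had 59.3, 50.3 and 64.6 CPM in GFP and 52.6, 71.3 and 89.0 CPM in PKCzeta, a log2 fold change of 0.29 (SE 0.21). It was the only member whose lowest library was GFP 1-4. Ccnd1 (chr7:144929931-144939831), cyclin D1, had 38.2, 68.2 and 47.1 CPM in GFP and 39.2, 53.9 and 76.9 CPM in PKCzeta, a log2 fold change of 0.15 (SE 0.30). The labels overlapped for both cyclins.

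Ccne1 (chr7:38097984-38107490), cyclin E1, which drives CDK2 at the entry to S phase, had 1.61, 3.07 and 2.61 CPM in GFP and 1.69, 2.95 and 5.20 CPM in PKCzeta. Its lowest libraries, GFP 1-1 and PKCzeta 2-1, were of different labels, and the log2 fold change was 0.43 (SE 0.45). E2f1 (chr2:154559400-154569892), the founding activator of the E2F family, had 0.240, 0.400 and 0.339 CPM in GFP and 0.736, 0.123 and 0.727 CPM in PKCzeta. Those levels stood on only 10 to 76 reads a library, its 2 highest libraries and its lowest all carried the PKCzeta label, and the log2 fold change was 0.70 (SE 0.65). Cdk2 gave 0.13.

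Ccne2, cyclin E2, gave 0.12 (SE 0.33) and did not follow cyclin E1. It had 17.7, 9.31 and 8.58 CPM in GFP and 9.69, 15.3 and 13.6 CPM in PKCzeta, so GFP 1-1 was the highest library. Ints8, which overlaps Ccne2 on the genome, held 14441 reads over all libraries beside 6441 for Ccne2. The sources used here do not say if counting was by strand, so reads of overlapping genes cannot be told apart. An overlapping neighbour with at least 10% of the member's reads was found for 9 members, which are Mcm7, Cdc45, Ccnd1, Ccne2, Cdk2, Cdc20, Aurka, Kif20a and Ccna2. Ccne2 was not alone in having a neighbour with more reads than its own. As a percent of the member's reads, Ufd1 held 552% of Cdc45, Elovl1 422% of Cdc20, Brd8 227% and Cdc23 157% of Kif20a, and Cstf1 141% of Aurka.

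The mitosis members had a median log2 fold change of 0.31, from 0.12 to 0.54, and a score of -0.14 ± 0.46 in GFP and 0.14 ± 0.63 in PKCzeta (SD, n = 3 each). All 15 were highest in PKCzeta 4-2, and all 15 were lowest in GFP 3-1 (9 genes) or PKCzeta 2-1 (6 genes). Aurka (chr2:172356190-172370886), the kinase of centrosomes and spindle poles, had 5.35, 11.1 and 4.67 CPM in GFP and 5.43, 10.2 and 15.0 CPM in PKCzeta. GFP 1-4 exceeded 2 of the 3 PKCzeta libraries, and the log2 fold change was 0.54 (SE 0.45, adjusted p = 0.917).

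Ccnb2 (chr9:70407689-70421554) and Ccnb1 (chr13:100778739-100786486), the B-type cyclins that activate CDK1, kept the same order. Ccnb2 had 13.5, 21.3 and 10.9 CPM in GFP and 12.6, 18.5 and 31.0 CPM in PKCzeta, a log2 fold change of 0.44 (SE 0.37). Ccnb1 had 16.6, 28.5 and 14.1 CPM in GFP and 14.2, 25.3 and 39.5 CPM in PKCzeta, a log2 fold change of 0.42 (SE 0.40). In both genes GFP 1-4 stood above PKCzeta 4-1 and below PKCzeta 4-2. Their partner kinase Cdk1 gave 0.29.

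Kif11 (chr19:37376382-37421863), whose promoter with CHR and CCAAT letters is printed above, had 33.0, 42.4 and 23.6 CPM in GFP and 24.0, 44.1 and 59.5 CPM in PKCzeta, a log2 fold change of 0.37 (SE 0.34). Here PKCzeta 4-1 and GFP 1-4 were nearly level. Among the other mitosis members, Birc5 and Aurkb, which act together at centromeres, gave 0.33 and 0.23. The checkpoint genes Bub1 and Bub1b gave 0.25 and 0.12, and Cdc20 and Ube2c, which work with the ubiquitin ligase that ends mitosis, gave 0.32 and 0.31. Plk1 gave 0.23, the motors Kif20a and Cenpe gave 0.33 and 0.19, and the kinetochore protein Cenpf gave 0.21.

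Mki67 (chr7:135689784-135716450), which encodes the proliferation marker Ki-67, had 112, 126 and 67.5 CPM in GFP and 81.8, 95.03 and 157 CPM in PKCzeta. Group means of 102 ± 30.6 and 111 ± 39.9 CPM (SD, n = 3 each) resulted, both GFP 1-1 and GFP 1-4 lay above 2 PKCzeta libraries, and the log2 fold change was 0.13 (SE 0.31), with a 95% interval from -0.58 to 0.84. Top2a (chr11:98992947-99024199), the topoisomerase that untangles replicated chromosomes, had 106, 177 and 75.6 CPM in GFP and 81.6, 125 and 220.2 CPM in PKCzeta, a log2 fold change of 0.25 (SE 0.41). Ccna2 (chr3:36564865-36573038), cyclin A2, had 39.4, 57.0 and 31.4 CPM in GFP and 32.7, 53.2 and 89.6 CPM in PKCzeta, a log2 fold change of 0.46 (SE 0.37). For all of them the GFP and PKCzeta ranges overlapped, and PKCzeta 4-2 was the highest library.

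GFP 1-1 was below 0 in both scores, and yet 6 members stood above their own mean there. Singled out after their values were seen, they were Ccne2 (0.57 on the log2 scale), Rrm2 (0.41), Cenpf (0.36), Cenpe (0.21), Mki67 (0.12) and Bub1 (0.064), while Cdc6 stood at -0.83 and Cdc20 at -0.60 in the same library. Among them were 1 of 12 replication members, Rrm2, and 3 of 15 mitosis members. In the lists of other genes, 2 of 52 replication genes (3.85%) and 15 of 56 mitosis genes (26.8%) stood above their own mean in GFP 1-1. In PKCzeta 4-1 the waves differed more in count, with 6 of 12 replication members and 13 of 15 mitosis members above their own mean.

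**Figure D4:**
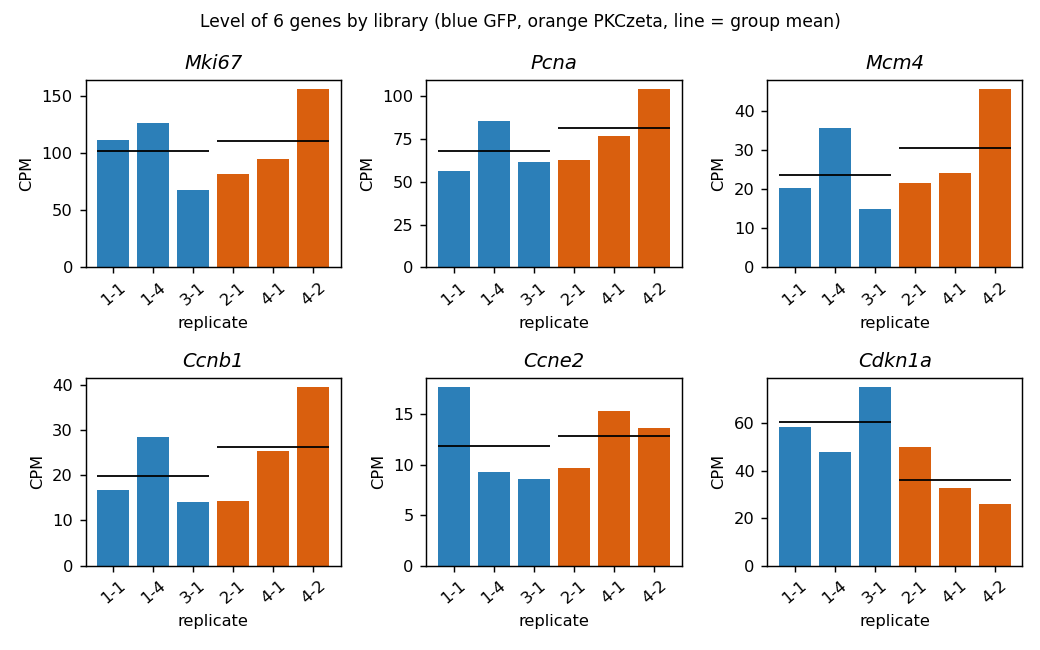
Level in CPM of Mki67, Pcna, Mcm4, Ccnb1, Ccne2 and Cdkn1a in each library (bars, blue GFP and orange PKCzeta, lines at group means). PKCzeta 4-2 is the highest bar for the first 4 genes, GFP 1-1 is the highest for Ccne2 at 17.7 CPM, and PKCzeta 4-2 is the lowest for Cdkn1a at 25.8 CPM.

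Beyond the members, 4 further lists of the pathway were read in the same fit, and none of their genes passed the adjusted threshold. Of the 52 other replication genes, 49 had log2 fold changes above 0, with a median of 0.19, and a single gene with a higher value had an unadjusted p under 0.05. That gene was Cdc7, the kinase that fires licensed origins, with 1.83, 1.42 and 1.02 CPM in GFP and 1.91, 2.37 and 3.70 CPM in PKCzeta, which edgeR gave as 0.91 on the log2 scale (SE 0.37, adjusted p = 0.877). Its labels did not overlap, and neither did those of Orc2, a subunit of the origin recognition complex, with 13.1, 15.1 and 13.3 CPM in GFP and 16.7, 16.9 and 21.7 CPM in PKCzeta (log2 fold change 0.41, SE 0.19). Those were the only 2 of the 52 without overlap, below the share over all genes given above. Dna2, a nuclease of Okazaki fragments, gave 0.58 (SE 0.31).

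Of the 56 other mitosis genes, 51 lay above 0, with a median of 0.23, and 0 passed an unadjusted p of 0.05. The smallest p belonged to Pimreg, which went the other way, with 0.454, 0.743 and 0.581 CPM in GFP and 0.253, 0.406 and 0.364 CPM in PKCzeta (log2 fold change -0.80, SE 0.41). Ect2, which positions the cleavage furrow, gave 0.51 (SE 0.26), and the condensin subunit Smc4 gave 0.33 (SE 0.19). Of the 20 other G1/S regulators, E2F family members and DREAM subunits, 13 lay above 0, with a median of 0.094. Cdk6 gave 0.42 (SE 0.19), E2f6 gave 0.62 (SE 0.38) and Lin52 gave 0.37 (SE 0.26). Cdk4, the cyclin D kinase, had 30.6, 57.5 and 31.7 CPM in GFP and 30.5, 46.0 and 62.9 CPM in PKCzeta, with PKCzeta 4-2 and GFP 1-4 highest as for most members, and gave 0.22 (SE 0.33).

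The 20 CDK inhibitors and checkpoint genes were even, with 10 above 0, 10 below 0 and a median of 0.013. Cdkn1a, which encodes the CDK inhibitor p21, had 58.3, 48.1 and 75.2 CPM in GFP and 49.9, 32.9 and 25.8 CPM in PKCzeta. Only PKCzeta 2-1 reached into the GFP range. The log2 fold change was -0.74 (SE 0.27, edgeR adjusted p = 0.871), the 1 gene of this list with an unadjusted p under 0.05, and it was -0.55 without PKCzeta 4-2. Gadd45a, a growth arrest gene, had 31.9, 40.2 and 83.3 CPM in GFP and 42.8, 24.4 and 26.7 CPM in PKCzeta, a log2 fold change of -0.73 (SE 0.38). Btg2, an antiproliferative gene, gave -0.40 (SE 0.22).

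Markers of crypt and villus cells and measures of the libraries differed between the same libraries. The Paneth cell markers (Lyz1, Mmp7, Itln1, Ang4 and Nupr1, 5 of 5 tested) had scores of -0.77, 0.88 and -0.45 in GFP and -0.79, 0.28 and 0.84 in PKCzeta. Their summed level ran from 3992 to 14341 CPM in GFP and from 4045 to 12597 CPM in PKCzeta, and their median log2 fold change was 0.19. The markers of crypt base stem cells (Lgr5, Olfm4 and others, 8 of 8 tested) varied less, with scores of -0.042, 0.016 and -0.032 in GFP and -0.31, 0.064 and 0.30 in PKCzeta, 5 of 8 fold changes above 0 and a summed level from 816 to 948 CPM in GFP and from 730.3 to 1087 CPM in PKCzeta. Enterocyte markers (Alpi, Fabp2, Sis and others, 10 of 10 tested) had scores of 0.66, 0.79 and 0.33 in GFP and -0.64, 0.19 and -1.33 in PKCzeta. All 10 had fold changes below 0, with a median of -0.94 and 7 at an unadjusted p under 0.05, and their summed level ran from 32002 to 40003 CPM in GFP and from 12709 to 27853 CPM in PKCzeta. Macrophage markers (Adgre1, Csf1r, Cd68, C1qa, C1qb and C1qc, 6 of 6 tested) had scores of -0.26, 0.095 and -0.097 in GFP and -0.17, 0.097 and 0.34 in PKCzeta, with a summed level from 89.3 to 114 CPM and from 98.7 to 129.5 CPM. The Paneth, stem cell and macrophage scores each had the sign of the members' score in all 6 libraries. The stem cell list was divided in GFP, with 3, 4 and 4 of 8 genes above their own mean in 1-1, 1-4 and 3-1. In PKCzeta 2-1, 4-1 and 4-2 these numbers were 0, 5 and 7. Lgr5 went against the members in GFP, with 6.11, 4.97 and 9.13 CPM, and Rnf43 was also highest in GFP 3-1. Neutrophil markers (S100a8, S100a9, Csf3r and Cxcr2, 4 of 5 tested) had scores of -0.93, -0.50 and -2.75 in GFP and -0.26, 2.67 and 1.78 in PKCzeta, with a summed level from 1.38 to 4.27 CPM and from 5.02 to 42.4 CPM. All 4 had fold changes above 0 at an unadjusted p under 0.05, with a median of 3.08, and Cxcr2 was at 0 reads in GFP 3-1. The part of these cell types in the members' values was not tested.

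**Figure D5:**
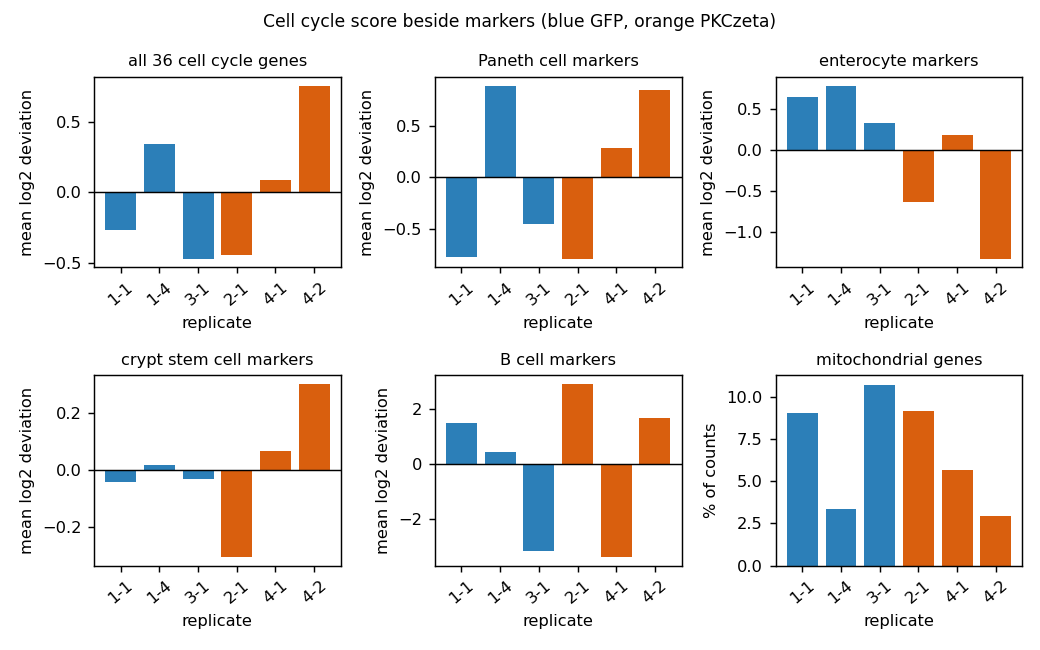
Mean deviation of log2 CPM in each library (bars, blue GFP and orange PKCzeta) for the 36 members and 4 marker lists, and the percent of counts on mitochondrial genes. The Paneth and crypt stem cell bars have the sign of the cell cycle bars in all 6 libraries. The stem cell bars in GFP are near 0, at -0.042, 0.016 and -0.032. The enterocyte bar is lowest in PKCzeta 4-2 at -1.33, and the mitochondrial share is lowest there at 2.92%.

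Germinal centre B cells also divide, and the 9 listed B cell and germinal centre markers (9 of 9 tested) had scores of 1.49, 0.45 and -3.15 in GFP and 2.91, -3.37 and 1.68 in PKCzeta. Their sign was that of the members' score in GFP 1-4, GFP 3-1 and PKCzeta 4-2 and the opposite one in GFP 1-1, PKCzeta 2-1 and PKCzeta 4-1. Their summed level ran from 3.57 to 98.4 CPM in GFP and from 3.76 to 246 CPM in PKCzeta, and their part in the members' values was not tested. Mef2b, a germinal centre transcription factor, was at 0 reads in PKCzeta 4-1 and in GFP 3-1. Plasma cell scores were -0.23, 0.83 and -0.35 in GFP and -0.43, -0.19 and 0.37 in PKCzeta. None of the 5 exocrine pancreas markers had enough reads to be tested.

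The share of reads on mitochondrial genes was 9.08%, 3.37% and 10.7% in GFP 1-1, 1-4 and 3-1 and 9.19%, 5.67% and 2.92% in PKCzeta 2-1, 4-1 and 4-2, and ribosomal RNA took 4.40%, 1.35% and 4.66% and 4.44%, 2.33% and 0.956% in the same order. Both shares were lowest in the libraries where the members' score was above 0. With the rows of ribosomal RNA, mitochondrial genes and antigen receptor segments left out before scaling, the medians were 0.27 for replication and 0.30 for mitosis, with 36 of 36 members above 0. Leaving these rows out changes the scaling and cannot remove other differences between the libraries. Whether the members' values depend on what sets these shares was not tested.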

How the data were processed

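Ribosomal RNA was depleted and stranded total RNA libraries were made, per the labels' protocols. The submitters' processing notes name HISAT2, StringTie, Trimmomatic, FastQC and the build mm10. The counting program and its strand setting are not given in the sources used here. In the deposited table, per the file headers, every gene has a read count in whole numbers for each library, beside FPKM and TPM. The deposited FPKM values were not used, and the deposited TPM values, scaled to length, served for levels between genes and for an alternative test.

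The test was that of edgeR 4.0.16 (R 4.3.3) on the counts (filterByExpr, TMM, robust quasi-likelihood F test, two-sided, Benjamini-Hochberg over 18456 genes, threshold 0.05). The biological coefficient of variation was 0.354, so counting error matters mainly for members under 1 CPM. Scores use log2 CPM with a prior count of 2. DESeq2 1.42.0 and limma 3.58.1 gave alternatives. A check on counts simulated from the means, depths and dispersions of these libraries was run after the fits, and no result here rests on it. The RefSeq gene table (GRCm38.p6) matched 45679 of 45777 gene IDs and all 36 members, and positions count from 1. Deposited per-library columns left unmapped numbered 0.

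The members and lists were chosen with earlier results of these data known. Values per library are given for Mki67, Top2a, Ccna2, Pcna, Ccnd1 and the 4 members of smallest p in each role. In the other lists the 3 genes of smallest p are named, with Cdkn1a and Cdk4. Libraries were grouped by their labels, with n = 3 each.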

Additional observations from a re-analysis of the deposited data

How the results depend on the processing

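No member passed the adjusted threshold in any alternative run (other scalings and filters, DESeq2, limma voom, limma on log2 TPM, each library left out), with adjusted p-values for the named members from 0.609 to 1.00. DESeq2 called 83 genes over the whole table and 0 members. E2f1 was not tested where a mean of 1 CPM was required.

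With 1 library left out at a time, the number of members with a fold change below 0 ran from 0 to 21 (21 without PKCzeta 4-2), and the number higher at an unadjusted p under 0.05 from 0 to 1. That 1 was E2f1 without PKCzeta 4-1 (log2 fold change 1.16, edgeR adjusted p = 0.931). The median log2 fold change ran from -0.063 to 0.66 for replication, from -0.031 to 0.63 for mitosis and from 0.013 to 0.39 for G1/S regulators. The difference between labels in mitosis minus replication ran from -0.063 to 0.047, and was -0.0052 with Mki67, Top2a and Ccna2 counted as mitosis genes. Single genes that changed sign ran from -0.13 to 0.41 for Ccnd1, from -0.19 to 0.31 for Mki67, from -0.20 to 0.65 for Top2a, from -0.044 to 0.79 for Mcm4 and from -0.063 to 0.68 for Ccne1. Without both GFP 1-4 and PKCzeta 4-2, an alternative chosen after seeing the data, 4 members lay below 0, the median was 0.23, Mki67 was at -0.016 and Ccnd2 at -0.00042. The cause was not tested.

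Of 254 alternative values for the 15 named members, 245 kept their direction and their side of the threshold and 9 changed sign. On log2 TPM the median of all genes lay at 0.14 (pseudocount 1) or 0.23 (pseudocount 0.1), with 78.3% and 78.4% of genes above 0, and all 36 members lay above those medians. No paired analysis was possible because the groups share no replicate numbers.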
